A study of Homo sapiens with 4 samples.

Results

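The transcripts of 34 genes of the lysosome and of the transcription factors that drive it were followed in the established human neuroblastoma line SK-N-BE(2) after a hairpin against the RNA-binding protein IGF2BP3. The 34 genes were chosen by name, as lysosomal hydrolases, lysosomal membrane proteins, the 4 MiT/TFE factors TFEB, TFE3, MITF and TFEC, the glycoprotein GPNMB and the autophagy receptor SQSTM1, and all 34 were found by symbol among the 64252 rows of the gene count table. The choice was made with earlier results of these data known. RNA sequencing of total RNA gave 4 libraries: 2 from cells that carried a short hairpin RNA against IGF2BP3 (shIGF2BP3) and 2 from the same line with a control hairpin (shControl). No drug, time course or second hairpin sequence is described in the labels, so the model is 1 cell line. Nothing in the labels says that the 2 libraries of a group came from separate cultures, so the spread that p-values rest on is that between libraries and could be technical.

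Lysosomes are acidic organelles in which hydrolases break down proteins, glycans and lipids delivered by endocytosis and autophagy. The MiT/TFE factors are basic helix-loop-helix proteins that bind E-box words, among them the CLEAR element, in front of many lysosomal and autophagy genes, and they are kept in the cytoplasm when mTORC1 at the lysosome phosphorylates them. GPNMB is a transmembrane glycoprotein of lysosomes and melanosomes, known in melanocytes, macrophages and osteoclasts, and is a described target of MITF and TFE3 in other cells.

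Sequences in front of 5 of these genes are shown because 3 of the 4 largest rises of the list (GPNMB, CTSA, SCARB2), the channel MCOLN1 and the lysosomal marker LAMP1, which moved the other way, can be read against the words that MiT/TFE factors are known to bind. Each is the 250 bases that end just before a RefSeq transcript start on GRCh38.p14, written 5′ to 3′ on the gene's own strand. Capitals mark every match to TCACGTG (the CLEAR core) or TCATGTG (the M-box) on either strand, so that CACATGA is an M-box read on the opposite strand. The last 2 capitals of LAMP1 are the first bases of a CLEAR core that runs across the start. Every sequence shown carries a match. LIPA, the other of the 4 largest rises, held neither word near its RefSeq starts and is not shown. SQSTM1, TFE3 and GUSB also held neither and are not shown.
GPNMB, chr7:23246525-23246774, plus strand, 2 M-boxes: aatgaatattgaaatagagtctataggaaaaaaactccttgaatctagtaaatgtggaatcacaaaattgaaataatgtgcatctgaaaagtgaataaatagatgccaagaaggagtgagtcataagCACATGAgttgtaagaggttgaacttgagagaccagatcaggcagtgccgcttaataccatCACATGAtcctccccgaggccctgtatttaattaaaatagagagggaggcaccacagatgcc
CTSA, chr20:45891085-45891334, plus strand, 2 CLEAR cores and 1 M-box: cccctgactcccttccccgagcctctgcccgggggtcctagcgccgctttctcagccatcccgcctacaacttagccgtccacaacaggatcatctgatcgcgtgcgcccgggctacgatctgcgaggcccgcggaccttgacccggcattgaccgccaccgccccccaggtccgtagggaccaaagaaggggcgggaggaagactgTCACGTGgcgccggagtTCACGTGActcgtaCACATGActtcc
SCARB2, chr4:76213825-76214074, minus strand, 1 M-box: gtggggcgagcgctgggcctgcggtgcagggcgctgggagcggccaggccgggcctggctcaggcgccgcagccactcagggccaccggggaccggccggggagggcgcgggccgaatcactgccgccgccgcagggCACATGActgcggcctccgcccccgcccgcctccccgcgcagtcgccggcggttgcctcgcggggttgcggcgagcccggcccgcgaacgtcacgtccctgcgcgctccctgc
MCOLN1, chr19:7522374-7522623, plus strand, 2 CLEAR cores: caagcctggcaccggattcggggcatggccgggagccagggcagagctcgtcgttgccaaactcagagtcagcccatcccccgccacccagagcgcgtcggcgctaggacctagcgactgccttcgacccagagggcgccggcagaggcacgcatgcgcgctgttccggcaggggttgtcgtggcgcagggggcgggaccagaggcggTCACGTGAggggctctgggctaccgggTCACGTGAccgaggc
LAMP1, chr13:113296989-113297238, plus strand, 6 CLEAR cores: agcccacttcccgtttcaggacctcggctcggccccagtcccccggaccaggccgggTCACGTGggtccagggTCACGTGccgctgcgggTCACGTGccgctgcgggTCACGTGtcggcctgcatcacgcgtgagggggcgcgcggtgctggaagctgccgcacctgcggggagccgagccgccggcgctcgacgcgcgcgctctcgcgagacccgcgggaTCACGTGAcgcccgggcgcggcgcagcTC

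IGF2BP3 itself was read first, as the targeted gene. It had 813 and 875 counts in the shIGF2BP3 libraries against 4215 and 4347 in the shControl libraries, a log2 fold change of -2.28 (SE 0.09), which goes with the labels. Total counts ran from 26755695 to 31946756 per library. Levels are given as CPM, that is, counts brought to the same total in every library with TMM factors. Fold changes are log2 of shIGF2BP3 over shControl, with a standard error (SE) worked back from the test named below. Pairs of levels joined by "against" give replicates 1 and 2 of shIGF2BP3 first and those of shControl after. A gene was said to rise or fall when edgeR's two-sided quasi-likelihood test gave a Benjamini-Hochberg adjusted p under 0.05 over 19767 tested genes. The comparison was broad: 51.5% of tested genes passed (25.9% higher and 25.6% lower), and the lowest and highest values of the 2 groups did not overlap for 74.5% of them.

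Most of the lysosome list rose. Of the 34 genes 33 were tested, 20 rose, 5 fell and 8 did not pass. That is, 60.6% rose beside 25.9% of all tested genes, and 15.2% fell beside 25.6%. All 34 are protein-coding, and of the 14096 protein-coding genes tested 29.7% rose and 31.2% fell. The list was chosen with earlier results of these data known, so these shares describe it and test nothing. At least 2-fold higher were 9 members (all genes, 10.4%), and at least 2-fold lower was 1 (all genes, 9.16%). The groups did not overlap for 30 members, 23 higher and 7 lower, in a comparison in which 74.5% of all genes did not overlap either. Among the 14096 protein-coding genes the groups overlapped for 2813. The median log2 fold change of the 33 was 0.54, with quartiles of -0.02 and 1.02, against 0.01 over all tested genes. Added together, the 34 genes held 4166 and 4131 CPM in shIGF2BP3 beside 2604 and 2675 CPM in shControl, a ratio of 1.57. In bulk RNA, fewer cells of a type and less RNA per cell cannot be told apart.

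**Figure D1:**
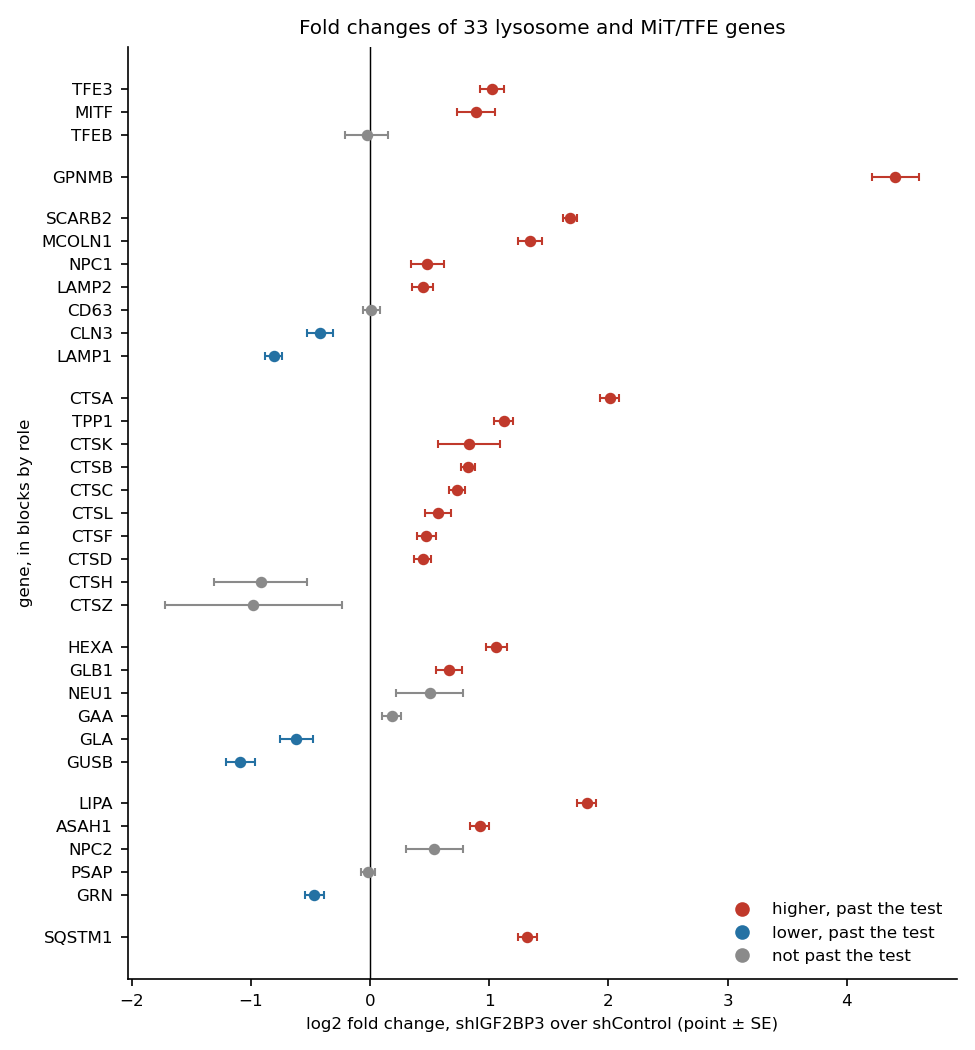
Log2 fold change of shIGF2BP3 over shControl (horizontal axis, points, bars ± SE) for the 33 tested members, in blocks by role on the vertical axis and coloured by the test. GPNMB stands apart at 4.41, 8 of the 10 peptidases rose, and the lower calls are LAMP1, CLN3, GLA, GUSB and GRN.

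Among the transcription factors, TFE3 and MITF rose and TFEB did not pass the test. TFE3 (ENSG00000068323, chrX:49028726-49043486) stood at 87.2 and 87.3 CPM with the IGF2BP3 hairpin and at 38.0 and 47.4 CPM with the control hairpin. Both shIGF2BP3 values were above both shControl values, and the log2 fold change was 1.02 (SE 0.10, edgeR adjusted p = 9.82e-08). MITF (ENSG00000187098, chr3:69739435-69968337), the melanocyte member of the family, had 18.0 and 15.1 CPM against 9.32 and 8.63 CPM, with no overlap. Its log2 fold change was 0.89 (SE 0.16, edgeR adjusted p = 0.000185).

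TFEB (ENSG00000112561, chr6:41683978-41736259), the factor most often named for lysosome biogenesis, had 7.91 and 8.57 CPM against 8.73 and 8.12 CPM. The groups overlapped, and the log2 fold change was -0.03 (SE 0.18, edgeR adjusted p = 0.91). TFEC had no count in any of the 4 libraries, and 3 counts, the limit that a count of 0 allows, correspond to between 0.0958 and 0.111 CPM. Per kilobase of transcript, the scale on which genes can be set side by side, the 3 detected factors were not equal in level. In shControl TFE3 stood at 12.5 ± 1.94 CPM per kb (SD, n = 2), TFEB at 3.58 ± 0.184 and MITF at 1.86 ± 0.102. In shIGF2BP3 TFE3 was at 25.6 CPM per kb, while TFEB at 3.50 ± 0.198 and MITF at 3.43 ± 0.433 (SD, n = 2) differed by less than their spread.

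GPNMB rose more than any other member. It was counted 1218 and 1174 times in shIGF2BP3 and 76 and 41 times in shControl, or 43.0 and 42.8 CPM against 2.82 and 1.31 CPM. Both shIGF2BP3 libraries lay far above both shControl libraries, which differed between themselves more than the shIGF2BP3 pair did. The log2 fold change was 4.41 (SE 0.20, edgeR adjusted p = 5.69e-12), a 21.3-fold difference and rank 102 from the highest of 19767 tested genes. Leaving out any 1 library gave values from 3.91 to 5.03. The gene (ENSG00000136235, chr7:23235967-23275108 in GENCODE 29 on GRCh38) was at rank 32 of 34 by level per length in shControl, at 0.751 CPM per kb, above only CTSZ and TFEC and not beyond the spread from CTSH. In shIGF2BP3 it was at 15.6 CPM per kb, beside HEXA at 15.7 and CTSL at 15.5, from which it did not differ beyond the spread.

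**Figure D2:**
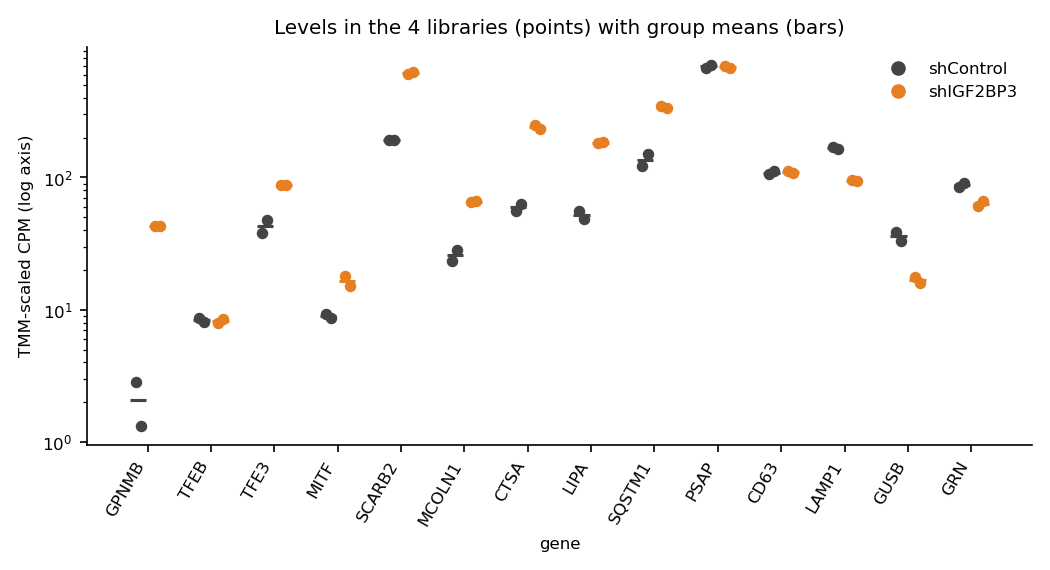
TMM-scaled CPM (log axis) of 14 members in each of the 4 libraries, as points, with the group mean as a short bar. The 2 libraries of a group lie furthest apart for GPNMB in shControl (2.82 and 1.31), and the groups overlap only for TFEB, PSAP and CD63.

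The membrane proteins of the lysosome split. SCARB2, MCOLN1, NPC1 and LAMP2 rose, LAMP1 and CLN3 fell, and CD63 did not pass. SCARB2 (LIMP-2, ENSG00000138760, chr4:76158733-76234536), the receptor that carries glucocerebrosidase to lysosomes, had 604 and 627 CPM against 192 and 194 CPM. The groups were far apart and tight, with a log2 fold change of 1.68 (SE 0.06, edgeR adjusted p = 7.99e-13). MCOLN1 (ENSG00000090674, chr19:7522626-7534009), the lysosomal calcium channel TRPML1, had 64.8 and 66.7 CPM against 23.6 and 28.1 CPM. Its log2 fold change was 1.34 (SE 0.10, edgeR adjusted p = 5.06e-09).

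Smaller rises were measured for LAMP2, the LAMP with a part in chaperone-mediated autophagy, and for NPC1, the cholesterol exporter of the lysosomal membrane. LAMP2 had 132.8 and 157.3 CPM against 111.9 and 101.8 CPM, a log2 fold change of 0.44 (SE 0.09, edgeR adjusted p = 0.000354). NPC1 had 24.4 and 22.9 CPM against 19.1 and 14.95 CPM, a log2 fold change of 0.48 (SE 0.14, edgeR adjusted p = 0.00736). The NPC1 call rested on 1 control library: without shControl replicate 2 the log2 fold change was 0.29 with an adjusted p of 0.144, and over all alternatives the adjusted p ran from 0.000392 to 0.144.

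LAMP1 (ENSG00000185896, chr13:113297241-113323672), the sister of LAMP2 and a usual marker of lysosomes, went the other way. It had 95.2 and 94.0 CPM in shIGF2BP3, beside 168.5 and 163.3 CPM in shControl. Both shIGF2BP3 values were lower, and LAMP1 fell by 0.81 on the log2 scale (SE 0.07, edgeR adjusted p = 2.91e-08). CLN3, a membrane protein lost in a form of Batten disease, had 28.5 and 25.8 CPM against 36.3 and 36.2 CPM and fell by 0.42 (SE 0.11, edgeR adjusted p = 0.00332). CD63, a tetraspanin of late endosomes and exosomes, had 111.5 and 107.3 CPM against 105.3 and 111.7 CPM, so the groups overlapped (log2 fold change 0.01, edgeR adjusted p = 0.918). LAMP1 and LAMP2 differed in level per length by less than their spread in shIGF2BP3, at 35.04 and 36.0 CPM per kb, against 61.5 and 26.5 CPM per kb in shControl.

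Among the roles with several tested genes, the proteases had the largest share that rose. Of 9 cathepsins and the tripeptidyl peptidase TPP1, 8 rose and none passed as lower, though the log2 fold changes ran from -0.98 to 2.01. CTSA (ENSG00000064601, chr20:45890144-45898820), the serine carboxypeptidase also called protective protein for its complex with GLB1 and NEU1, led them with 248.3 and 232.8 CPM against 55.8 and 63.1 CPM. The groups were clearly apart, and the 4.04-fold rise had a log2 value of 2.01 (SE 0.08, edgeR adjusted p = 1.26e-12). TPP1 (ENSG00000166340, chr11:6612763-6619485), the enzyme lost in CLN2 disease, had 125.2 and 126.7 CPM against 58.9 and 57.2 CPM. Its log2 fold change was 1.12 (SE 0.08, edgeR adjusted p = 1.27e-09).

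The abundant cysteine and aspartic proteases rose less. CTSB had 426.4 and 414.8 CPM against 236.6 and 239.7 CPM, a log2 fold change of 0.82 (SE 0.06, edgeR adjusted p = 4.71e-09). CTSC, the dipeptidyl peptidase that activates granule proteases in blood cells, had 125.4 and 129.3 CPM against 76.2 and 77.7 CPM (log2 fold change 0.73). CTSL followed at 0.57, CTSF at 0.47 and CTSD, the main lysosomal aspartic protease, at 0.44, each with groups that did not overlap. CTSK, the collagenase of osteoclasts, was scarce, with 4.80 and 5.83 CPM against 3.01 and 2.97 CPM, and its log2 fold change of 0.83 (SE 0.26) had an edgeR adjusted p of 0.0119. Without shIGF2BP3 replicate 2 the CTSK value was 0.69 with an adjusted p of 0.104, in a range over all alternatives from 0.00778 to 0.104.

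CTSH and CTSZ were the scarcest of the proteases and did not pass. CTSH had 43 and 22 counts against 60 and 69, a log2 fold change of -0.92 (SE 0.39, edgeR adjusted p = 0.0597). It moved with the library left out: without shIGF2BP3 replicate 1 the value was -1.46 with an adjusted p of 0.0369, and over all alternatives the adjusted p ran from 0.0369 to 0.385. CTSZ had 5 and 9 counts against 13 and 16, and it met the filter on low counts only through the shControl libraries (log2 fold change -0.98, SE 0.74, edgeR adjusted p = 0.293). These counts are the fewest of any tested member.

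The glycosidases went in both directions, with 2 higher, 2 lower and 2 not past. HEXA (ENSG00000213614, chr15:72340919-72376476), the alpha subunit of hexosaminidase A, had 85.6 and 79.5 CPM against 40.6 and 38.8 CPM. The log2 fold change was 1.06 (SE 0.09, edgeR adjusted p = 1.58e-08). GLB1, the beta-galactosidase read in senescence staining, had 45.1 and 38.5 CPM against 26.7 and 26.3 CPM, a log2 fold change of 0.66 (SE 0.11, edgeR adjusted p = 6.73e-05).

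GUSB (ENSG00000169919, chr7:65960684-65982314), the beta-glucuronidase, fell the most of all members. It had 17.7 and 16.0 CPM against 38.9 and 33.2 CPM, and it fell by 1.09 on the log2 scale (SE 0.12, edgeR adjusted p = 9.16e-07). GLA, the alpha-galactosidase lost in Fabry disease, had 14.8 and 13.4 CPM against 22.7 and 20.6 CPM and fell by 0.62 (SE 0.14, edgeR adjusted p = 0.00104). GAA, the acid alpha-glucosidase, had 101.2 and 93.7 CPM against 81.4 and 90.4 CPM, with a log2 fold change of 0.18 (edgeR adjusted p = 0.0729). GAA passed without shControl replicate 2, at 0.24 with an adjusted p of 0.0401, and without scaling beyond library size, at 0.26 with an adjusted p of 0.0158, in a range over all alternatives from 0.0158 to 0.397. NEU1, the sialidase, had 3.71 and 3.79 CPM against 2.41 and 2.84 CPM and did not pass (log2 fold change 0.50, SE 0.28, edgeR adjusted p = 0.148). Of the complex of CTSA, GLB1 and NEU1, 2 genes therefore rose and the third, the scarcest of them per length, did not pass.

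Of the genes that handle lipids or activate enzymes, LIPA and ASAH1 rose and GRN fell. LIPA (ENSG00000107798, chr10:89213569-89414557), the acid lipase that frees cholesterol from its esters, had 180.6 and 186.0 CPM against 55.6 and 48.6 CPM. The groups were far apart, and the log2 fold change was 1.82 (SE 0.08, edgeR adjusted p = 5.32e-12), a 3.53-fold rise. ASAH1, the acid ceramidase, had 154.5 and 170.7 CPM against 86.3 and 85.6 CPM, a log2 fold change of 0.92 (SE 0.08, edgeR adjusted p = 1.32e-08).

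GRN, the progranulin gene whose loss causes a lysosomal storage disease, had 60.9 and 66.2 CPM against 84.4 and 91.2 CPM. Both shIGF2BP3 libraries were lower, and GRN fell by 0.47 (SE 0.08, edgeR adjusted p = 0.000132). PSAP, the precursor of the saposins and a binding partner of progranulin, had 692.6 and 669.3 CPM against 676.4 and 707.3 CPM. Its groups overlapped and its log2 fold change was -0.02 (SE 0.06, edgeR adjusted p = 0.777). NPC2, the soluble partner of NPC1, had 6.18 and 5.18 CPM against 4.35 and 3.51 CPM, a log2 fold change of 0.54 (SE 0.24, edgeR adjusted p = 0.0721). NPC2 passed without scaling beyond library size, at 0.62 with an adjusted p of 0.0427, in a range over all alternatives from 0.0427 to 0.356.

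SQSTM1 (ENSG00000161011, chr5:179806398-179838078), which encodes the autophagy receptor p62, rose as well. It had 344.5 and 336.1 CPM against 122.7 and 149.3 CPM, a log2 fold change of 1.32 (SE 0.08, edgeR adjusted p = 1.43e-09). Each shIGF2BP3 value lay above both shControl values, which were themselves further apart.

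Since the strand setting of the counting is not given in the sources used here, members that overlap another gene are uncertain to the extent of that overlap. MRNIP, on the opposite strand, covers 20.7% of the exon bases of SQSTM1 and had between 1180 and 1582 counts in the 4 libraries. MGAT4B, also on the opposite strand, covers 1.4% of them and had 1968 and 1778 counts against 3516 and 4599. SQSTM1 itself had 9760 and 9221 counts against 3303 and 4673. NEURL2 covers 17.7% of the exon bases of CTSA and had at most 36 counts. PLTP covers 3.4% of them and had 1071 and 848 counts against 729 and 827 in shControl, where CTSA itself had 1503 and 1975. On the same strand AC009690.1, annotated as protein-coding, shares 4.9% of the HEXA exon bases and had 254 and 261 counts in shIGF2BP3 against 40 and 132 in shControl. AC068580.4 shares 41.7% of those of CTSD and had at most 60 counts, beside at least 2986 for CTSD. Among the scarcer members, ISCA2 covers 3.7% of the NPC2 exon bases on the opposite strand and had 380 and 379 counts against 365 and 353, more than the 175 and 142 and the 117 and 110 of NPC2 itself. RMC1, also on the opposite strand, covers 6.0% of those of NPC1 and had 257 and 220 against 375 and 447 counts, where NPC1 had 690 and 628 against 515 and 468.

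Set per length, the order of the list changed between the groups. The length used was that of the APPRIS principal transcript of GENCODE 29, the one annotated as the main isoform. Where several were so marked the longest was taken, and where none was, the longest coding transcript. The spread is that between libraries and does not cover this choice of transcript. PSAP was first in both groups, at 240.9 ± 7.63 CPM per kb in shControl and 237.1 ± 5.74 in shIGF2BP3 (SD, n = 2). In shControl CD63 came second at 88.0, and LAMP1 at 61.5 and CTSB at 61.5 CPM per kb did not differ beyond their spread. In shIGF2BP3 SCARB2 was second at 128.4, up from rank 7 at 40.2 CPM per kb. SQSTM1 at 114.0, CTSA at 111.9 and CTSB at 108.5 followed, and the 3 did not differ among themselves beyond their spread. CTSA had been at rank 12 in shControl, with 27.7 CPM per kb, and LAMP1 went from rank 3 to rank 14, at 35.04. At the lower end, CTSZ at 0.332 and 0.169 CPM per kb and the undetected TFEC were last in both groups.

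**Figure D3:**
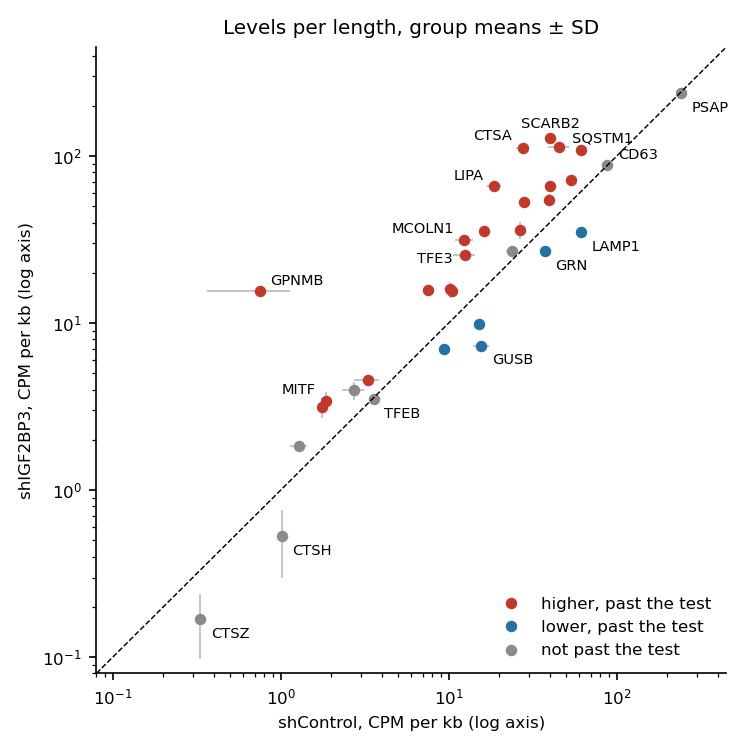
Mean level of the 33 tested members in shControl (horizontal) and shIGF2BP3 (vertical), in CPM per kilobase of principal transcript on log axes, with bars of ± 1 SD over 2 libraries and the dashed line of equal levels. GPNMB lies farthest above the line (0.751 against 15.6), PSAP and CD63 lie on it, and LAMP1, GRN and GUSB lie below.

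The words of the printed sequences were then counted over all genes. The CLEAR element is known in front of many lysosomal genes, so a larger share in this list than over all genes tests nothing. RefSeq windows of 300 bases, 250 before a transcript start and 50 after, were at hand for 28 of the 34 genes, in 46 windows since 8 genes had several. At least 1 CLEAR core lay in a window of 8 of the 28 members (28.6%), against 1226 of 27305 genes (4.49%). An M-box lay in 6 of 28 (21.4%), against 981 of 27305 genes (3.59%). The words lay before members of every kind: of 15 matched members that rose 4 had a CLEAR core and 4 an M-box, and of the 5 that fell 2 had a CLEAR core and 1 an M-box. Among the 7 matched members that did not pass, 2 had a CLEAR core and 1 an M-box.

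LAMP1 carried the most CLEAR cores, 6, at positions -193, -177, -160, -143, -29 and -2 (first base, counted from the start), and its transcript was lower in shIGF2BP3. CLN3, which also fell, carried 2 CLEAR cores in each of its 2 overlapping windows, and GRN, which fell too, carried 2 M-boxes. MCOLN1, which rose, had CLEAR cores at -42 and -15, and CTSA had them at -43 and -26 with an M-box at -12. GPNMB had M-boxes at -123 and -62 and no CLEAR core, SCARB2 had an M-box at -113, and TPP1 had M-boxes at -21 and -8. LIPA, SQSTM1, TFE3 and GUSB, which moved by over 1 on the log2 scale, held neither word in the windows searched. A match is a description of letters, and a window without one says only that these letters are not in it.

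**Figure D4:**
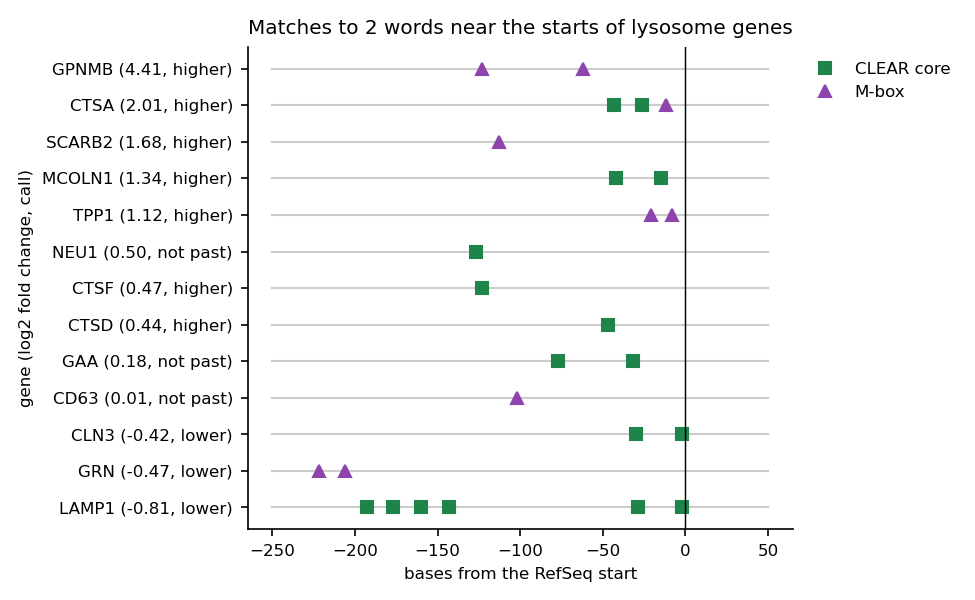
Positions of CLEAR cores (squares) and M-boxes (triangles) in bases from the RefSeq start (horizontal axis) for the 13 members with a match, 1 window each, ordered by log2 fold change. Genes that rose (GPNMB to TPP1, CTSF, CTSD) and genes that fell (CLN3, GRN, LAMP1) both carry the words, and LAMP1 carries the most.

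Further genes of the pathway, from 6 lists, were read from the same fit. Of 41 tested lysosomal hydrolases and activators outside the 34, 22 rose and 7 fell, and the median log2 difference was 0.44. ACP5 (tartrate-resistant acid phosphatase), IDUA (iduronidase), CTSO and SMPD1 (acid sphingomyelinase) rose the most, by 3.26, 3.12, 2.30 and 2.02. CTSV, PLA2G15 (lysosomal phospholipase), ARSB (arylsulfatase B) and GGH (gamma-glutamyl hydrolase) fell by 2.63, 1.62, 1.52 and 1.24. SMPD1 had 35.1 and 36.6 CPM against 8.39 and 9.27 CPM (edgeR adjusted p = 7.68e-10). The shares that rose and fell were 53.7% and 17.1%, beside 60.6% and 15.2% of the members.

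Of 28 tested membrane proteins outside the 34, 15 rose (53.6%) and 7 fell (25%), with a median of 0.31. SLC17A5, the sialic acid exporter, rose by 1.23 and SLC29A3, a nucleoside transporter, by 1.16, while SPNS1 fell by 0.76 and OSTM1 by 0.66. Of 19 subunits and accessory proteins of the V-ATPase, the proton pump that acidifies lysosomes, 10 rose (52.6%) and 4 fell (21.1%), with a median of 0.24, and without shIGF2BP3 replicate 1 the lower count was 2. ATP6V0A1 rose by 1.08, from 100.1 and 105.7 CPM to 217.7 and 218.4 CPM (edgeR adjusted p = 5.19e-10), and ATP6V0C rose by 0.97 and ATP6V1C1 by 0.95. TCIRG1, the a3 subunit of osteoclasts, fell by 0.78 (edgeR adjusted p = 0.00812), a call that rested on shIGF2BP3 replicate 1, without which the value was -0.57 with an adjusted p of 0.109.

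Of 22 genes that deliver enzymes to lysosomes 6 rose and 6 fell, or 27.3% each way, near the 25.9% and 25.6% of all tested genes, with a median of -0.03. M6PR and IGF2R, the receptors for mannose 6-phosphate, rose by 1.37 and 0.68, and NAGPA, which uncovers that tag, by 0.99. GGA2 and AP1B1, which sort those receptors at the Golgi, fell by 1.01 and 0.90. Of 41 autophagy genes 18 rose (43.9%) and 8 fell (19.5%), with a median of 0.13. WIPI1, an early autophagosome protein, rose by 2.12 and GABARAPL1, of the LC3 family, by 1.41, while ATG4C, a protease of that family, fell by 2.34.

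Of 31 genes of mTORC1, the Rag GTPases and their regulators, 11 rose and 9 fell, with a median of 0.04. These shares, 35.5% and 29%, stand beside 25.9% and 25.6% of all tested genes and 29.7% and 31.2% of protein-coding ones. The list pools activators and inhibitors of mTORC1 with the calcineurin genes PPP3CA, PPP3CB and PPP3R1. Its counts and median therefore give no direction of control over the MiT/TFE factors. DEPTOR, an inhibitor of mTOR, rose by 1.67, from 50.5 and 52.9 CPM to 163.2 and 165.3 CPM (edgeR adjusted p = 7.1e-12). FNIP2, a partner of folliculin, rose by 0.95, LAMTOR1, the anchor of the Ragulator complex, by 0.93 and SESN2 by 0.92. SESN1 fell by 1.31, TBC1D7 by 1.03, NPRL3 by 0.89 and RPTOR, the raptor subunit of mTORC1, by 0.73. Transcript levels do not report phosphorylation or the place of the factors in the cell, which were not measured.

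**Figure D5:**
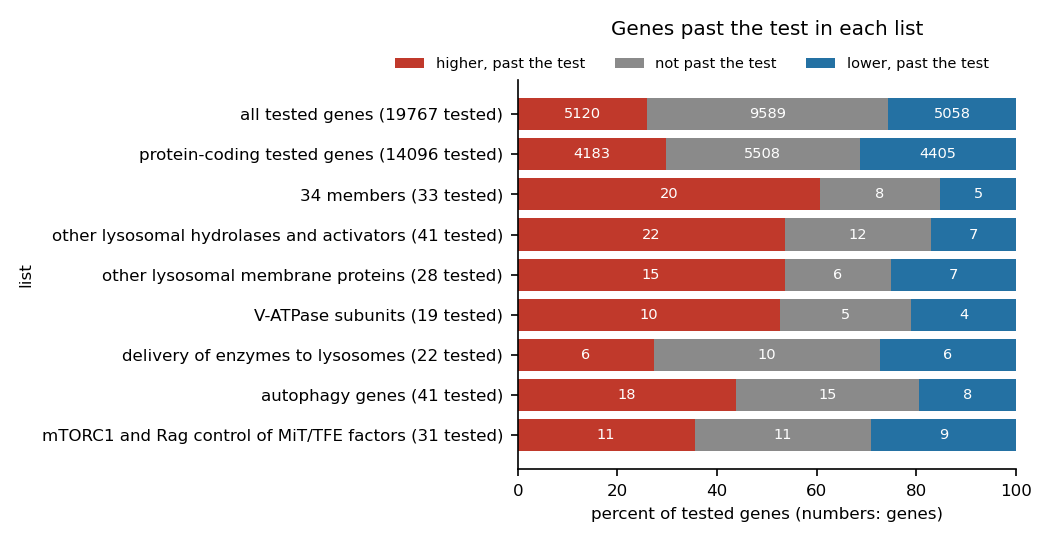
Percent of tested genes (horizontal axis, with the number of genes in each bar) that rose, did not pass or fell, for all genes, protein-coding genes, the 34 members and 6 further lists. The members (20 of 33 rose), the other hydrolases (22 of 41), the other membrane proteins (15 of 28) and the V-ATPase (10 of 19) each have more rises than falls, the delivery genes have 6 of each among 22, and all genes have 5120 rises among 19767.

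Markers of other cell types that are rich in lysosomes, or in GPNMB and MITF, were read beside these results. Of 11 macrophage markers 2 were tested, TYROBP, C1QA, C1QB and MSR1 were at 0 in all libraries, and the summed level was 2.99 to 3.67 CPM in shIGF2BP3 and 2.43 to 3.19 CPM in shControl. Of the 2, PTPRC (CD45) fell, with 0 and 2 counts against 20 and 17 (edgeR adjusted p = 0.00542), and CD14 did not pass. PTPRC met the filter on low counts only through the shControl libraries, so it could hardly have been called higher. CD68, a lysosomal membrane protein abundant in macrophages and held here in the list of other membrane proteins, rose by 3.36 (SE 0.50, edgeR adjusted p = 2.2e-05), with 78 and 72 counts against 8 and 7. It met the filter on low counts only through the shIGF2BP3 libraries and was chosen for mention after its values were seen. Of 8 melanocyte markers TYR and TRPM1 were at 0, and the sum was 9.29 to 9.95 CPM against 13.3 to 16.3 CPM, with DCT higher and PMEL and TYRP1 lower. PMEL, with 4 and 7 counts against 51 and 42, met the filter only through the shControl libraries. DCT, with 26 and 51 counts against 14 and 3, met it through the shIGF2BP3 libraries, since the shControl pair alone would not have. SOX10, which defines Schwann cells and melanocytes, was at 0, and the 5 Schwann cell markers summed to 9.21 to 9.44 CPM against 5.24 to 5.56 CPM.

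Of 8 fibroblast markers FAP was at 0, 4 rose, among them COL1A1 by 1.77 and COL3A1 by 1.62, LUM fell by 1.09, and the sum was 1011 to 1028 CPM against 805 to 843 CPM. All 10 neuroblastoma markers were detected in every library, as their labelled cell type would have. Of these 8 fell, DBH rose, and the sum was 2859 to 2990 CPM in shIGF2BP3 against 4539 to 4572 CPM in shControl. The part of these shifts in the rise of the lysosome genes was not tested.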

How the data were processed

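RNA was measured in 4 libraries of SK-N-BE(2) cells, 2 per hairpin. The authors deposited whole-number counts per Ensembl gene, and the submitters' processing notes name HISAT2 2.2.0, StringTie and hg38. Which of these made the counts, under what strand setting, annotation release and counting rule, is not given in the sources used here. Counts made by StringTie would be rounded estimates from coverage. Of 64252 identifiers, 56105 were named from a table of gene names, 486 from GENCODE 29, and 7661 had no name.

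The test was that of edgeR 4.0.16 under R 4.3.3: filterByExpr (smallest count 10), TMM scaling, group as the only term, a robust quasi-likelihood fit, and Benjamini-Hochberg adjustment over all 19767 tested genes. The fit left 2 residual degrees of freedom, with a common biological coefficient of variation of 12.62%. It also drew on the variance of other genes, with a median of 15.06 prior degrees of freedom. The p-values therefore do not rest on a gene's own 4 libraries alone. The code was tested on simulated counts. The SE is the absolute log2 fold change divided by the square root of the quasi-likelihood F statistic, so it restates the test. Intervals of counting error are not given, since the SE carries the spread between libraries that the test used.

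All 34 members are reported. From each further list up to 4 higher and 4 lower genes that passed could be named, by size of change, where their average log2 CPM was 1 or more. The members and lists were chosen with earlier results of these data known. Promoter windows came from RefSeq on GRCh38.p14. Alternatives were 3 other scalings, 2 other filters, DESeq2 1.42.0, limma 3.58.1 with voom, a replicate block, each library left out, and edgeR's older fit.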

Additional observations from a re-analysis of the deposited data

How the results depend on the processing

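Over 13 alternatives, 12 of them planned and 1 (edgeR's older quasi-likelihood fit) chosen after seeing the data, between 24 and 27 members passed, 19 to 22 of them higher and 5 or 6 lower. Leaving out each library gave 19 to 20 higher and 5 to 6 lower members, and 8800 to 9442 genes past the test in all. Of 428 member values under these alternatives 418 kept their side of the threshold, and 0 called values turned. Another 2 no longer passed (NPC1 and CTSK), and 8 newly passed (CTSH, GAA and NPC2). The 418 include uncalled values near 0 that changed sign: TFEB ran from -0.1 to 0.05, CD63 from -0.03 to 0.09 and PSAP from -0.06 to 0.06. Among 637 values of other named genes 11 no longer passed, for SLC66A1 and MFSD8 (without shIGF2BP3 replicate 2), TCIRG1 and ATG4D (without shIGF2BP3 replicate 1), MFSD8 also without a filter, and ATP6AP1 under 6 settings. The V-ATPase list had 4 lower genes, and 2 without shIGF2BP3 replicate 1. With a replicate block 10509 genes and 26 members passed. Same-numbered libraries did not deviate together (r = 0.021 over genes), and were not treated as pairs. The median over all genes lay between -0.01 and 0.09 and that of the members between 0.53 and 0.66. With 2 libraries per group and 3 counts equal to about 0.1 CPM, CTSZ, CTSH, CTSK, NEU1 and NPC2 were the least precise.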

Other observations

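GPNMB lies on chromosome 7, 35101 bases from IGF2BP3, the gene targeted by the hairpin, with MALSU1 between and partly across the end of IGF2BP3. Their neighbours were read after this position was seen. The 8 other tested protein-coding genes, out to TOMM7 at 487357 bases, had log2 fold changes between -1.15 and 1.19, beside 4.41 for GPNMB. FAM221A rose by 1.19 (SE 0.25, edgeR adjusted p = 0.000701) and NUPL2 by 0.45 (SE 0.09, edgeR adjusted p = 0.000308). CCDC126 fell by 1.15 (SE 0.26, edgeR adjusted p = 0.00129) and KLHL7 by 0.29 (SE 0.09, edgeR adjusted p = 0.0127). MALSU1, TRA2A, FAM126A and TOMM7 did not pass, with log2 fold changes of -0.12, -0.15, 0.03 and 0.13.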
